A study of Mus musculus with 7 samples.

Results

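The C-type natriuretic peptide pathway was represented here by 7 genes, chosen by symbol for their known place in the pathway. They are the ligand genes Nppc and Ostn, the receptor genes Npr2, Npr1 and Npr3, and the cyclic GMP-dependent kinase genes Prkg2 and Prkg1, and all 7 were found among the 43346 genes in the deposited counts. Allelic expression in growth plates, the cartilage discs at the ends of a growing bone, was measured by RNA-seq of 7 F1 mice from a cross of C57BL/6J (B6) and CAST/EiJ (CAST). All mice were males aged 21 d, none was treated, and proximal and distal tibial growth plates of a mouse gave 1 library of total RNA depleted of ribosomal RNA. The mice formed 1 group and carry the numbers 1, 2, 3, 4, 5, 7 and 8 in the labels, and the comparison within them is that of the B6 with the CAST allele of each gene.

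C-type natriuretic peptide, encoded by Nppc, is a secreted peptide that drives lengthening of the long bones. It binds natriuretic peptide receptor 2 (Npr2), a membrane guanylyl cyclase that makes cyclic GMP, and in growth plate chondrocytes cyclic GMP activates the kinase encoded by Prkg2, which opposes signalling from FGF receptor 3 through the MAP kinases. Natriuretic peptide receptor 3 (Npr3) has no cyclase and takes the peptide up for breakdown, and osteocrin (Ostn) binds that clearance receptor and so spares the peptide. Mice without Nppc, Npr2 or Prkg2 have short bones, and mice without Npr3 have long ones.

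The ligand gives the pathway its name, and its mature form is the last stretch of a precursor of 126 residues. The end of the Nppc coding sequence in GENCODE release M21, 66 bases or 22 codons before the stop codon, lies on the minus strand at chr1:86669667-86669732 (GRCm38). Capitals mark the codons of the 2 cysteines that close the ring of the peptide, which spans 17 codons from the first to the last.
Nppc coding end: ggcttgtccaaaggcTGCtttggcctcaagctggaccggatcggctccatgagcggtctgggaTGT

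Libraries held 14098019 to 37849667 estimated counts, with a median of 27603769, and 49.4% to 49.9% of them were assigned to CAST. These sums exceed the average number of reads per sample that the labels give, and whether lanes or read ends were added up is not stated, so a count may not be an independent fragment and the counting errors and intervals below may be too narrow. Between 90.2% and 91.6% of X-linked counts and 99.98% to 99.99% of mitochondrial counts were from B6 in every mouse, so the B6 allele was the maternal one throughout, and strain and parent of origin cannot be told apart. The remaining X-linked counts were assigned to CAST, although a male with a B6 mother inherits no CAST X chromosome. Shares of CAST may therefore be inexact, and how far this holds for other genes was not tested. Markers of chondrocytes, the labelled cell type, were all present and summed to 55577 to 92431 counts per 1000000 counts of the library (CPM). Markers of other cells were present too, and in none of the lists was a gene at 0 in every mouse: the sums were 35971 to 65584 CPM for osteoblasts, 4102 to 5971 for osteoclasts, 7869 to 19283 for erythroid cells, 1041 to 2225 for neutrophils, 3214 to 7060 for skeletal muscle, 315 to 628 for synovium and tendon, 163 to 242 for endothelium, 116 to 212 for smooth muscle and 87.7 to 167 for adipocytes. In such tissue, fewer cells of a type and less RNA per cell cannot be told apart.

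Expressed per length, as counts divided by exon length and scaled to a sum of 1000000 (TPM), the receptor of the peptide was the most abundant of the 7 genes and the clearance receptor the least. Npr2 had a level of 12.0 ± 2.42 TPM (SD, n = 7 mice), above 85.2% of the 15623 protein-coding genes tested. Npr1, the receptor of the atrial and brain peptides, followed with 4.41 ± 0.907 TPM, and its level was below that of Npr2 in all 7 mice, with no overlap of their ranges. Prkg2 was next at 3.06 ± 0.490 TPM, below Npr1 in 7 of 7 mice although the ranges overlapped. Ostn had 2.25 ± 1.12 TPM and Prkg1, the kinase best known from smooth muscle, had 1.18 ± 0.367 TPM. The ligand gene Nppc had 0.957 ± 0.488 TPM, and Npr3 had 0.327 ± 0.119 TPM, above 15.7% of the coding genes tested.

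Some neighbours in this order did not differ beyond their spread. The level of Prkg2 was above that of Ostn in 4 of 7 mice and that of Prkg1 above that of Nppc in 4 of 7 mice. Ostn exceeded Prkg1 in 7 of 7 mice with overlapping ranges, and Nppc exceeded Npr3 in 7 of 7 mice without overlap. These counts of mice, and the ratios below, take all annotated exons of a gene as its length. For Prkg1 that is 10861 bases, against 6976 for its longest transcript, while Nppc and Ostn have 1 transcript each. The order of Prkg1 against Nppc and Ostn within a mouse therefore depends on the length chosen. With the longest transcript, the mean was 1.73 TPM for Prkg1, 2.11 for Ostn and 0.899 for Nppc. Within a mouse, the ratio of the TPM of Npr2 to that of Npr3 ran from 27.0 to 63.0 with a median of 35.6, and the ratio of Prkg2 to Prkg1 ran from 1.73 to 3.61 with a median of 2.97. The 2 ligand genes stood at a ratio of Ostn to Nppc of 1.03 to 6.32, above 1 in every mouse. The 3 small noncoding RNA genes Rn7s1, Rn7s2 and Rn7sk took 15.5% to 23.8% of a library's counts. With these left out every mean TPM was about 2.9 times higher, as at 34.7 for Npr2 and 0.945 for Npr3, in the same order of the 7 genes. Their share was lowest in mouse 1 and highest in mouse 8, so the SD of a TPM between mice also holds this difference in scaling. Npr2 was at 15.6 TPM in mouse 1 and 9.46 in mouse 8, and at 60.2 and 51.6 CPM.

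**Figure D1:**
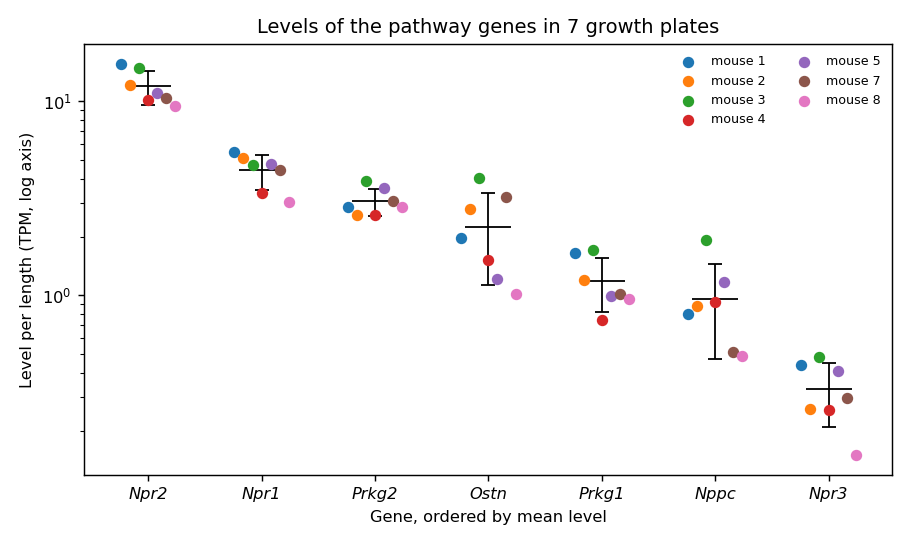
Level of each gene per length in TPM (log axis) for the 7 mice, with 1 coloured point per mouse and a black bar for the mean ± SD. Npr2 lies above every other gene in each mouse, Npr3 lies lowest, and the points of Ostn spread from 1.01 to 4.03 TPM.

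Between mice, levels are given in CPM, which do not depend on gene length. Mouse 3 had the highest CPM for 6 of the 7 genes, all but Npr1. Its values were 1.85 CPM for Nppc, 5.29 for Ostn, 64.2 for Npr2, 4.17 for Npr3, 17.1 for Prkg1 and 19.2 for Prkg2, while the CPM of Npr1 was highest in mouse 7 at 22.6. The lowest CPM of Npr1 (16.9), Npr3 (1.65) and Ostn (1.69) was found in mouse 8. Beside these values, mouse 3 had the highest summed smooth muscle markers (212 CPM) and the lowest erythroid ones (7869 CPM), and mouse 8 had the lowest smooth muscle (116 CPM), chondrocyte (55577 CPM), endothelial (163 CPM) and synovium and tendon sums (315 CPM). Mouse 4 had the next lowest CPM of Npr1 (17.4) and the next lowest endothelial sum (164 CPM), but the highest chondrocyte sum (92431 CPM). In mouse 7, where the CPM of Npr1 was highest, the endothelial sum was 174 CPM, while that sum was highest in mouse 1 (242 CPM). The part of cell composition in these levels was not tested.

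The spread between mice was set against counting error, because the genes differ widely in depth. The coefficient of variation of the CPM was 9.81% for Npr2 and 11.9% for Npr1, near the medians of genes with similar counts (12.0% and 12.9%). Prkg2 varied by 17.3% and Prkg1 by 21.97%, the latter more than 90.5% of the 4920 genes with a mean of 300 to 1000 counts. Ostn had a coefficient of 47.8%, where counting error alone gives 12.3% if each count is 1 fragment, and varied more than 97.2% of the 2712 genes with 30 to 100 counts. Nppc varied by 46.8% and Npr3 by 29.9%, where counting error gives 23.0% and 12.4%, and these spreads exceeded those of 86.3% and 76.9% of the genes with similar counts. Ostn is made by muscle as well as by bone, and the summed skeletal muscle and osteoblast markers are therefore given beside it. In mice 1, 2, 3, 4, 5, 7 and 8, Ostn was at 2.32, 3.60, 5.29, 2.33, 1.72, 4.89 and 1.69 CPM. The muscle sums were 7060, 4369, 4976, 3214, 3566, 3326 and 5587 CPM in that order. The osteoblast sums were 64368, 65584, 54314, 46732, 40541, 35971 and 37600 CPM. The part of muscle or bone in the level of Ostn was not tested.

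**Figure D2:**
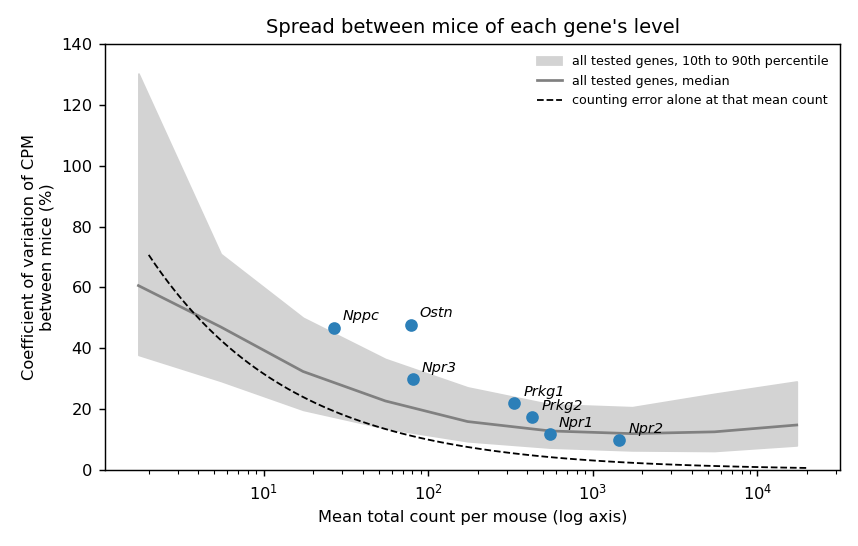
Coefficient of variation of CPM between 7 mice (%) against the mean total count per mouse (log axis) for the 7 genes (blue points), with the median (grey line) and the 10th to 90th percentile (grey band) of all tested genes in bins of count, and counting error alone (dashed line). Ostn at 47.8% and Nppc at 46.8% lie above the band as drawn between bins, although Nppc exceeds only 86.3% of the genes in its own bin. Prkg1 lies near the upper edge of the band, and Npr1 and Npr2 lie below the median.

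The alleles were then compared, to ask which of the 7 genes were expressed unequally from the B6 and CAST chromosomes in the same cells. Npr1 and Ostn were higher from the B6 allele and Npr3 was higher from the CAST allele, while Nppc, Npr2, Prkg1 and Prkg2 did not pass the threshold, which was a Benjamini-Hochberg false discovery rate (FDR) under 0.20 over 20239 genes in the likelihood-ratio test of edgeR. The 3 called genes of 7 stand beside 34.5% of all genes tested that were called in either direction, a share near that of the 7. Fold changes below are CAST over B6 on the log2 scale with their standard error (SE). Shares are the percent of a gene's counts assigned to CAST, their 95% Wilson intervals cover counting error only and take each count as 1 fragment, and it is unknown how many of those counts came from reads that tell the alleles apart. Single-gene p-values come from an exact permutation test, 2-sided, that flips the signs of the log2 ratios of 7 mice, whose smallest possible value is 0.0156. It was run for 7 genes and its p-values were not adjusted.

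**Figure D3:**
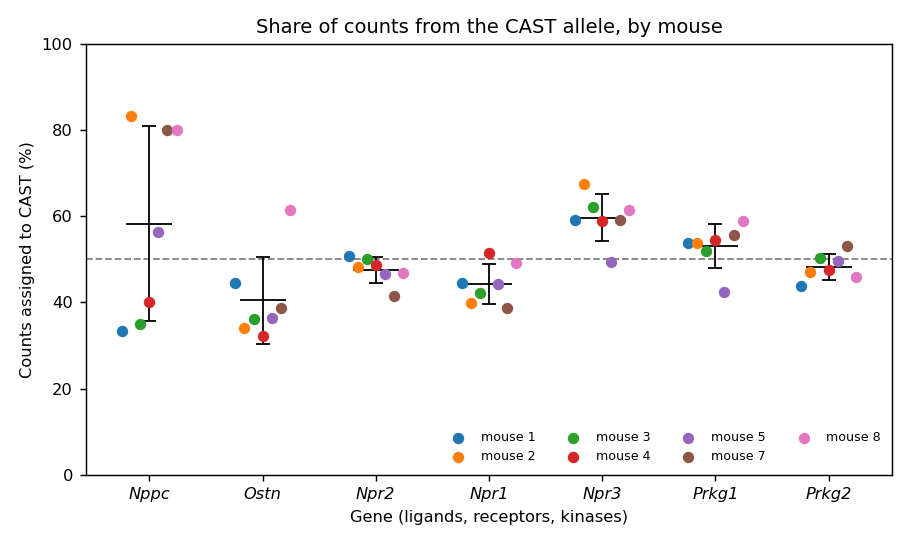
Percent of each gene's counts assigned to the CAST allele, with 1 coloured point per mouse, a black bar for the mean ± SD of 7 mice and a dashed line at 50%. In each case, 6 of 7 points lie below the line for Npr1 and Ostn and above it for Npr3, and the points of Nppc run from 33.4% to 83.3%.

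Among the ligands, Nppc lies on chromosome 1 (GRCm38, 86666291 to 86670571, minus strand) and had 21, 25, 51, 22, 46, 8 and 14 counts in mice 1, 2, 3, 4, 5, 7 and 8. The CAST share of these counts was 33.4%, 83.3%, 35.0%, 40.0%, 56.3%, 80.0% and 80.0% in the same order. In all, 4 mice were higher from CAST and 3 from B6, and the interval of mouse 2 (65.3% to 93.6%) did not meet that of mouse 3 (23.6% to 49.0%). That pair of mice is named after the values were seen, and the intervals may be too narrow. The mean was 12.7 ± 11.3 counts from B6 and 14.0 ± 7.58 from CAST (SD, n = 7). The fold change of Nppc was 0.18 (SE 0.44, edgeR FDR 0.890), the mean of the 7 log2 ratios was 0.53 ± 1.37 (SD; exact permutation test, p = 0.328), and the test found no difference between alleles beyond the spread of the mice.

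Ostn, on chromosome 16 (27307489 to 27351212, plus strand), had 40 to 146 counts in a mouse. The CAST share was 44.5%, 34.0%, 36.2%, 32.2%, 36.4% and 38.7% in mice 1, 2, 3, 4, 5 and 7, and 61.5% in mouse 8, which had the fewest counts of the gene, 15.4 from B6 and 24.6 from CAST. The other 6 mice were higher from B6, and mouse 8 was higher from CAST, with an interval of 47.0% to 75.8%, while the intervals of mice 2, 3, 4 and 5 lay wholly below 50%. Over the 7 mice the B6 allele had 47.9 ± 25.8 counts and the CAST allele 30.2 ± 11.9 (SD). The log2 fold change of Ostn was -0.63 (SE 0.33, edgeR FDR 0.171; exact permutation test, p = 0.0625), and with the mouse as a block its FDR was 0.0117. In the blocked quasi-likelihood test the FDR of Ostn was 0.0900. The call of Ostn in the unblocked test was lost without mouse 2, 3, 4, 5 or 7, with an edgeR FDR of 0.205 to 0.343.

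Among the receptors, Npr2 lies on chromosome 4 (43631935 to 43651244, plus strand) and had 727 to 1930 counts in a mouse. The CAST share was 50.7%, 48.3%, 50.03%, 48.8%, 46.5%, 41.6% and 46.9% in mice 1, 2, 3, 4, 5, 7 and 8. Mouse 7 stood lowest, and the intervals of mice 5, 7 and 8 lay below 50%. The B6 allele had 750 ± 216 counts and the CAST allele 695 ± 236 (SD, n = 7), a log2 fold change of -0.11 (SE 0.09, edgeR FDR 0.471; exact permutation test, p = 0.0625, with 5 of 7 mice higher from B6). Without mouse 7 the log2 fold change of Npr2 was -0.06. With the mouse as a block the edgeR FDR of Npr2 was 0.143, under the threshold, which 45.3% of all genes passed in that fit, and in the blocked quasi-likelihood test it was 0.232. An antisense gene, Gm12473, overlaps Npr2 and had 24 to 68.3 counts, and whether the counting used strand is not given in the sources used here.

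Npr1, on chromosome 3 (90450591 to 90465866, minus strand), is the closest relative of Npr2: the encoded proteins share 63.2% of 1027 aligned residues, against 31.5% of 495 for Npr2 and Npr3. Its counts ran from 319 to 852 in a mouse, and its CAST share was 44.4%, 39.9%, 42.1%, 51.5%, 44.2%, 38.7% and 49.2% in mice 1, 2, 3, 4, 5, 7 and 8. The share was below 50% in 6 mice, by more than the counting interval in 5, and mouse 4 was slightly above. The B6 allele had 307 ± 116 counts and the CAST allele 241 ± 82.1 (SD, n = 7), a log2 fold change of -0.33 (SE 0.11, edgeR FDR 0.0120; exact permutation test, p = 0.0469). Npr1 was the one gene of the 7 with an FDR under 0.05 in the unblocked test. It was called in all 18 fits tried, each mouse left out in turn included. Its blocked edgeR FDR was 0.00358 in the likelihood-ratio test and 0.0473 in the quasi-likelihood test. The sign-flip p of Npr1 was 0.0625 or higher without mouse 1, 2, 3, 5, 7 or 8, in a test whose smallest p over 6 mice is 0.0312. The total count was not whole for Npr1 in 2 mice and for Npr2 in 4, which marks reads divided between genes.

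Npr3, the clearance receptor on chromosome 15 (11839896 to 11907287, minus strand), was the only one of the 7 genes called higher from CAST. It had 104, 66, 115, 55, 144, 42 and 39 counts in mice 1, 2, 3, 4, 5, 7 and 8, and a CAST share of 59.1%, 67.5%, 62.1%, 58.8%, 49.5%, 59.3% and 61.5%. Mouse 5, with the most counts, was the one mouse not above 50%, and the intervals of mice 2 and 3 lay wholly above it. The B6 allele had 33.6 ± 20.8 counts and the CAST allele 47.1 ± 20.9 (SD, n = 7), a log2 fold change of 0.52 (SE 0.24, edgeR FDR 0.0930; exact permutation test, p = 0.0312). The blocked edgeR FDR of Npr3 was 0.00423 in the likelihood-ratio test and 0.0199 in the quasi-likelihood test. Without mouse 2 the unblocked fold change was 0.45 and the call was lost, at an FDR of 0.218. The exact sign-flip p of Npr3 was 0.0625 without mouse 1, 2, 3, 4, 7 or 8.

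Neither kinase gene was called. Prkg2, on chromosome 5 (98929773 to 99037351, minus strand), encodes the kinase that acts in growth plate chondrocytes and had 248 to 719 counts in a mouse. Its CAST share was 43.9%, 47.1%, 50.3%, 47.6%, 49.7%, 53.1% and 45.9% in mice 1, 2, 3, 4, 5, 7 and 8, with mouse 1 alone having an interval below 50%. The B6 allele had 222 ± 77.4 counts and the CAST allele 207 ± 79.0 (SD, n = 7), a log2 fold change of -0.07 (SE 0.14, edgeR FDR 0.833; exact permutation test, p = 0.219).

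Prkg1, on chromosome 19 (30564489 to 31765033, minus strand), had 166 to 473 counts in a mouse. Its CAST share was 53.8%, 53.8%, 52.0%, 54.4%, 55.6% and 59.0% in mice 1, 2, 3, 4, 7 and 8, and 42.5% in mouse 5, whose interval of 37.7% to 47.3% lay below 50%. The interval of mouse 8, 53.1% to 64.3%, lay above it. Mouse 5 was also the mouse with the highest erythroid (19283 CPM) and neutrophil (2225 CPM) marker sums. In mouse 7 these sums were nearly as high (18200.5 and 2108 CPM), at a CAST share of 55.6%. The part of such cells in the share of Prkg1 was not tested. The B6 allele had 158 ± 67.0 counts and the CAST allele 174 ± 61.2 (SD, n = 7), a log2 fold change of 0.19 (SE 0.15, edgeR FDR 0.445; exact permutation test, p = 0.156). Another gene on the opposite strand, Cstf2t, lies within Prkg1 and had 450 to 1024 counts.

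The other genes of the pathway were followed in 5 lists of 38 genes. Of these, 37 were found, 35 were tested, and 13 were called by the same edgeR test, 7 higher from CAST and 6 higher from B6, or 37.1% beside 34.5% of all genes. The median log2 fold change was 0.02 over the 35 genes and 0.01 over all 20239. The genes of the other natriuretic peptides, Nppa and Nppb, were not tested: Nppa had 0 to 2 counts in a mouse and Nppb had none.

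Of 4 tested genes for processing and clearance of the peptides, 1 was higher from CAST and 2 from B6, where 34.5% of all genes were called. With so few genes, and as lists chosen with results known, such counts describe the lists only. Furin, a protease that cleaves many precursors, was higher from CAST in all 7 mice, with 2551 ± 696 against 2164 ± 658 counts (SD), a log2 fold change of 0.27 (SE 0.11, edgeR FDR 0.0602). Corin, the protease that cleaves the atrial peptide precursor, had a log2 fold change of -1.45 (SE 0.36, FDR 0.000179) at a median of 20 counts per mouse. Ide, an insulin-degrading protease that also cuts natriuretic peptides, was higher from B6 in 7 of 7 mice, with 704 ± 251 against 374 ± 159 counts, and a log2 fold change of -0.93 (SE 0.10, FDR 3.83e-17). Mme encodes neprilysin, another enzyme that breaks the peptides down, and had a CAST share of 40.4% to 49.8% in the 7 mice with an FDR of 0.393 unblocked and 0.00800 with the mouse as a block.

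Guanylyl cyclases outside the natriuretic receptors were called in 4 of 5 cases, 2 in each direction, beside the same 34.5% of all genes. The subunits of the nitric oxide-sensitive cyclase differed in direction: Gucy1b1 and Gucy1a2 were higher from CAST with log2 fold changes of 0.55 (SE 0.16, edgeR FDR 0.00437) and 0.64 (SE 0.28, FDR 0.0886), and Gucy1a1 was higher from B6 at -0.54 (SE 0.10, FDR 1.22e-06). The call of Gucy1a2 was lost without mouse 2, 5 or 8, with an edgeR FDR of 0.201 to 0.305 and a log2 fold change of 0.40 without mouse 2. In the blocked quasi-likelihood test the fold change of Gucy1a2 was 0.70 and the FDR 0.238. Gucy2g, a membrane cyclase, had 9 to 27 counts in a mouse and a CAST share of 14.3% ± 10.7 (SD, n = 7), a log2 fold change of -2.55 (SE 0.45, FDR 5.43e-09). Of 10 phosphodiesterases and exporters of cyclic GMP tested, Pde10a was higher from CAST at 0.27 (SE 0.11, FDR 0.0506), Pde1a was higher from B6 at -0.47 (SE 0.17, FDR 0.0237), and the other 8 did not pass. Pde1c was called in addition with the mouse as a block, higher from CAST at an edgeR FDR of 0.131. Pde2a was not analysed here.

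Of 8 targets of cyclic GMP and its kinases, 1 was called in each direction, a share below the 34.5% of all genes. Trpm7, an ion channel joined to a kinase, was higher from B6 in 7 of 7 mice with a log2 fold change of -0.30 (SE 0.11, edgeR FDR 0.0253), and Ppp1r12a, a myosin phosphatase subunit, was higher from CAST at 0.18 (SE 0.09, FDR 0.157). The call of Ppp1r12a was lost without mouse 1, 2, 3 or 7 and in 3 other fits, with an FDR of up to 0.354. Vasp, the classic substrate of these kinases, had a CAST share of 46.1% to 48.4% in the 7 mice, with an edgeR FDR of 0.456 unblocked and 3.31e-07 with the mouse as a block. The blocked test called 5 of these 8 genes, beside 45.3% of all genes in that fit. Of the 5, 1 was higher from CAST and 4 from B6, the latter including Kcnma1 (FDR 0.0831) and Gsk3b (FDR 0.184).

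In the arm that the peptide opposes, 2 of 8 genes were called, both higher from CAST, a share below the 34.5% of all genes. They were the MAP kinase kinases Map2k1, with a log2 fold change of 0.40 (SE 0.10, edgeR FDR 0.000378), and Map2k2, with 0.25 (SE 0.09, FDR 0.0370), each in 7 of 7 mice. Fgfr3 itself was abundant, at 42.9 ± 5.23 TPM (SD, n = 7), and its CAST share was above 50% in 7 of 7 mice, from 50.3% to 56.4%. The log2 fold change of Fgfr3 was 0.19 (SE 0.12) with an edgeR FDR of 0.275, and of 0.000828 with the mouse as a block. The blocked test called 5 of these 8 genes, 4 higher from CAST, with Ppp2r5d (FDR 0.159) among them, and 1 higher from B6, Mapk14 (FDR 0.100). Blocked by mouse, the likelihood-ratio test called 4 of the 7 pathway genes and 21 of the 35 others (10 higher from CAST and 11 from B6), beside 45.3% of all genes. The blocked quasi-likelihood test called 3 of the 7 and 19 of the 35, beside 8157 of all 20239 genes. DESeq2 with the same block called 3 of the 7 and 15 of the 35, beside 6790 of 20045 genes. Mme, Vasp, Fgfr3, Pde1c, Kcnma1, Gsk3b, Mapk14 and Ppp2r5d are named here after their values were seen. Their blocked FDRs above are those of the likelihood-ratio test. In the blocked quasi-likelihood test the FDR was 0.0336 for Mme, 0.00260 for Vasp and 0.0276 for Fgfr3, and Gsk3b did not pass, at 0.242. DESeq2 with the mouse as a block did not call Pde1c, Kcnma1, Gsk3b, Mapk14 or Ppp2r5d, with FDRs of 0.223 to 0.574.

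**Figure D4:**
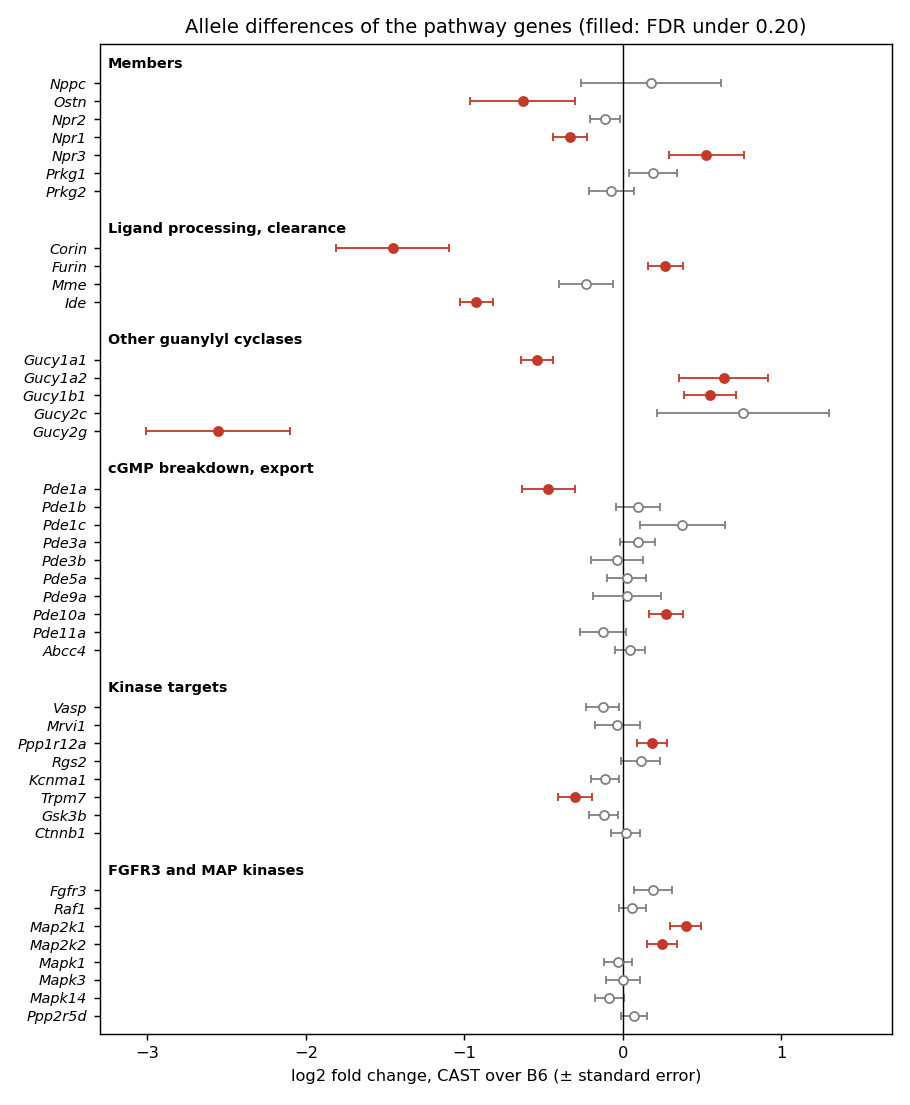
Log2 fold change of CAST over B6 (x axis; bars are ± 1 standard error from edgeR) for the 7 genes and the 35 other tested genes in 5 lists, filled red at an FDR under 0.20. Npr1 and Ostn lie to the left of 0 and Npr3 to the right, and Gucy2g at -2.55 lies farthest from 0.

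The levels of 4 of the genes, those with at least 100 counts on average, were compared over the 7 mice with those of 9315 other genes on the log2 CPM scale. The 7 points of each comparison share their libraries and cell composition, so the coefficients are descriptions. Npr2 was most alike to Cacna1c (Pearson's r = 0.99, Spearman's rho = 1) and Piezo2 (r = 0.98, rho = 0.93), and 34 genes had an r above 0.9 with it. Prkg1 was most alike to Sytl2 (r = 0.99, rho = 0.96) and Pard3b (r = 0.97, rho = 0.96), among 94 genes above 0.9. Prkg2 was most alike to Nedd4 (r = 0.98, rho = 0.96) and Ccpg1 (r = 0.98, rho = 0.96), among 17. Npr1 had 5 such genes, led by Cdc25a (r = 0.95, rho = 0.93) and Cnot11 (r = 0.95, rho = 0.96). Without the 2 mice farthest from the median of each gene, the r of these 8 pairs was 0.83 to 0.99. The pairs were picked for the highest r over the same mice, so these values are no separate check.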

How the data were processed

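RNA-seq of growth plates from 7 mice was analysed. The authors deposited estimated counts per gene and allele, not normalized. They aligned reads with Bowtie, allowing at most 3 mismatches, to a joint B6 (mm10) and CAST transcriptome made with g2gtools, and divided reads among genes and alleles with EMASE, processing lanes and read ends separately. Their versions are not given in the sources used here.

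The 20239 genes in which some allele had a count above 0 in each of the mice were rounded and tested with edgeR 4.0.16 (R 4.3.3). The fit used TMM factors per allele column and, as in the study's methods, glmFit and glmLRT. Genes were called at an FDR under 0.20, adjusted over all 20239. The study used that threshold for genes of a single mapped region, and over how many genes it adjusted is not stated, so equal FDRs may stand for unlike P-values. Both alleles of a mouse come from 1 animal, and their deviations from the allele means correlated at 0.18 on average (lowest 0.05), so fits with the mouse as a block were also made. Other alternatives were the quasi-likelihood test, DESeq2 1.42.0, other scalings, thresholds and filters, counts without rounding, and omission of each mouse. The sign-flip test used log2 ratios with a pseudocount of 0.5. TPM used the union of exons in GENCODE M21, which holds 42462 of the 43346 gene identifiers. Counts without a length made up 0.167% to 0.233% of a library. A total was called whole to a tolerance of 0.0001. No mouse was a duplicate of another (chi-square per degree of freedom at least 14.4 over 21 pairs).

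The 7 genes and the lists were chosen with earlier results of these data known. Named besides them are, in each list, up to 4 called genes with the smallest P-values, and for likeness the 2 autosomal coding genes with the highest r among those with at least 100 counts in every mouse. Sequence and protein comparisons come from GENCODE M21 transcripts.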

Additional observations from a re-analysis of the deposited data

Results flagged for a closer look

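In 27 sets of 7 values for the pathway genes, the highest and lowest mice were compared with the range by Dixon's criterion, which chance meets in about 1 of 20 sets (1.35 of these 27), and 2 sets met it. The log2 ratio of CAST over B6 of Prkg1 was -0.44 in mouse 5 and 0.12 to 0.52 in the other 6 mice. Without mouse 5 the mean log2 ratio of Prkg1 was 0.28, against 0.17 with all 7. The log2 ratio of Ostn was 0.66 in mouse 8 and -1.05 to -0.32 in the others. Without mouse 8 its mean was -0.76, against -0.56 with all 7. No test is given without these mice, since leaving out the 1 mouse of opposite sign fixes the outcome of a sign-flip test.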

How the results depend on the processing

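Npr1, Npr3 and Ostn were called in each of the 11 other fits of all 7 mice, which changed the test, scaling, filter, rounding or block. Leaving out 1 mouse at a time gave 1 to 3 called genes of the 7 (1 without mouse 2). Those fits called 11 to 13 of the 35 other pathway genes and 6278 to 6856 of the 20310 to 20809 genes tested. At an FDR under 0.05, 1 of the 7 genes was called, beside 4777 of all 20239 genes tested. The likelihood-ratio test with a replicate block for the mouse called 21 of the 35 other pathway genes, beside 45.3% of all genes. With that block, the quasi-likelihood test called 19 of the 35 and DESeq2 15, beside 8157 and 6790 of all genes. Beyond the calls given with the results, no call of the 7 genes changed. The direction of Nppc reversed without mouse 2, with log2 fold changes of -0.094 to 0.55 over the 7 omissions. The cause was not tested. Without Rn7s1, Rn7s2 and Rn7sk every TPM rose, and with the longest transcript as length the TPM of Prkg1 was 1.73. Nppc had 8 to 51 counts in a mouse, the highest dispersion of the 7 genes (0.242) and an SE of 0.44 on the log2 scale. How much of that SE depth or the spread between mice gave was not separated. Nothing in the labels says how many reads told the alleles apart.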
